A study of Homo sapiens with 6 samples.

Results

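The set described here holds 40 genes of glucose transport, glycolysis, control of pyruvate dehydrogenase, the pentose phosphate pathway and glycogen, listed by name. Earlier results of these data were known when the list was chosen. All 40 were measured, of 19775 genes with at least 1 tested probe set carrying a single gene symbol. Their annotation covers 91 probe sets, of which 86 were tested under 1 symbol, 2 are shared by SLC2A3 and its close relative SLC2A14, and 3 are array controls for GAPDH.

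RNA came from NCI-H226, an established human mesothelioma cell line, grown in 2 ways in medium with 10% serum and added pyruvate. In the monolayer group (n = 3) the cells were adherent, and in the spheroid group (n = 3) 10000 cells per well were spun together in wells coated against attachment and incubated for 24 hours without matrix. Each of the 6 RNA samples, called biological replicates by the submitters, was hybridized to 1 Affymetrix Human Genome U133 Plus 2.0 array. A single line was used, glucose, lactate and oxygen values are not part of these data, and the density of the monolayers at RNA extraction is not given in the sources used here.

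Glucose enters cells through facilitative transporters of the SLC2A (GLUT) family and is trapped by hexokinases. Glycolysis then converts it to pyruvate, which is either reduced to lactate or passed to mitochondria through pyruvate dehydrogenase, an enzyme that pyruvate dehydrogenase kinases switch off and phosphatases switch on. The pentose phosphate pathway branches off at glucose 6-phosphate and gives NADPH and ribose, and glycogen stores glucose. Many steps have several isoforms, and hypoxia-inducible factor, MYC and p53 are known regulators of some of them.

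Signals are MAS5 values on a linear scale with no unit, with every array scaled by the authors to the same trimmed mean. How far a signal stood over background is unknown, since detection calls were not used here. Log2 signals were centred on the array median, and fold changes are spheroids minus monolayers on that scale. Centring lowered every log2 fold change by 0.145 relative to the signals as deposited. A gene is called when its Benjamini-Hochberg adjusted p by limma, over all 54613 tested probe sets, is under 0.05, and a gene takes its values from the probe set with the highest mean log2 signal. SE stands for the standard error from limma or, for isoform pairs, of the difference between groups.

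Of 12 mesothelial markers 10 were measured, with summed signals of 4171 to 10300 in monolayers and 8009 to 10730 in spheroids. WT1 had signals from 1347 to 2009 on the 6 arrays, and KRT5 from 79.3 to 1845. MUC16 lay between 0.932 and 2.90, near the bottom of the scale, and PDPN alone of the 10 was called, higher in spheroids (log2 fold change 1.10, adjusted p = 0.0396 by limma). Among those not called, CALB2 had a log2 fold change of 2.49, and THBD had -1.245 without overlap between the groups. Summed signals of 8 leukocyte markers ran from 160.3 to 192 in monolayers and from 210.1 to 261 in spheroids. Those of 8 endothelial markers were 250.5 to 486 and 184 to 242, and those of 8 fibroblast markers 535 to 860.2 and 700.7 to 757, with PDGFRA called higher. FAP (-1.13) and THY1 (-0.37) had negative log2 fold changes and the other fibroblast markers positive ones, none of them called except PDGFRA. Summed signals of 5 squamous markers were 636 to 834 in monolayers and 956 to 1161 in spheroids, with IVL called higher (log2 fold change 1.73). The other 4 squamous markers, KRT14, DSG3, DSC3 and SOX2, had negative log2 fold changes and were not called. The ratio of 3' to 5' signal was 1.09 ± 0.0123 in monolayers and 1.175 ± 0.0603 in spheroids for ACTB (SD, n = 3, two-sided exact permutation test p = 0.1), and 0.8945 ± 0.0174 and 0.901 ± 0.0121 for GAPDH (p = 0.6). After Benjamini-Hochberg over the 2 ratios these were 0.2 and 0.6. Monolayer 1 stood apart from the other monolayers, with a CALB2 signal of 1582 against 163 and 83.6, and values without it are given for the 4 members whose call they change (HK1, HK2, PGM1 and PYGB). The part of these differences in the results was not tested. In bulk RNA, fewer cells of a type and less RNA per cell cannot be told apart.

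In spheroids, 5 of the 40 genes were higher, 2 were lower and 33 were not called. The higher ones were the transporters SLC2A1, SLC2A3 and SLC2A6, the aldolase isoform ALDOC and the kinase PDK1. The lower ones were the phosphofructokinase isoform PFKM and the fructose bisphosphatase TIGAR. Over all genes, 3.88% were called higher and 9.22% lower. The median log2 fold change of the 40 genes was 0.08, against -0.06 over all genes. On the signals as deposited 8 were higher and 2 lower, where the background was 6.76% higher and 7.58% lower, and the medians were 0.23 and 0.08. The 3 added were ALDOA, PFKL and SLC2A13. The deposited signals of the groups did not overlap for 20 genes that were higher in spheroids and 6 that were lower, against 19.0% and 16% of all genes. On centred values these were 11 and 8 genes, against 11.7% and 20.6% of all genes. By probe set, 10 of 86 were called higher and 3 lower, with 2.78% and 6.65% of all probe sets as background. Of the 5 higher calls, all but that of ALDOC depended on the variance model. ALDOC alone was called higher by limma without its mean-variance trend, and likewise by the methods' t-test after adjustment. Neither lower call held without the trend.

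**Figure D1:**
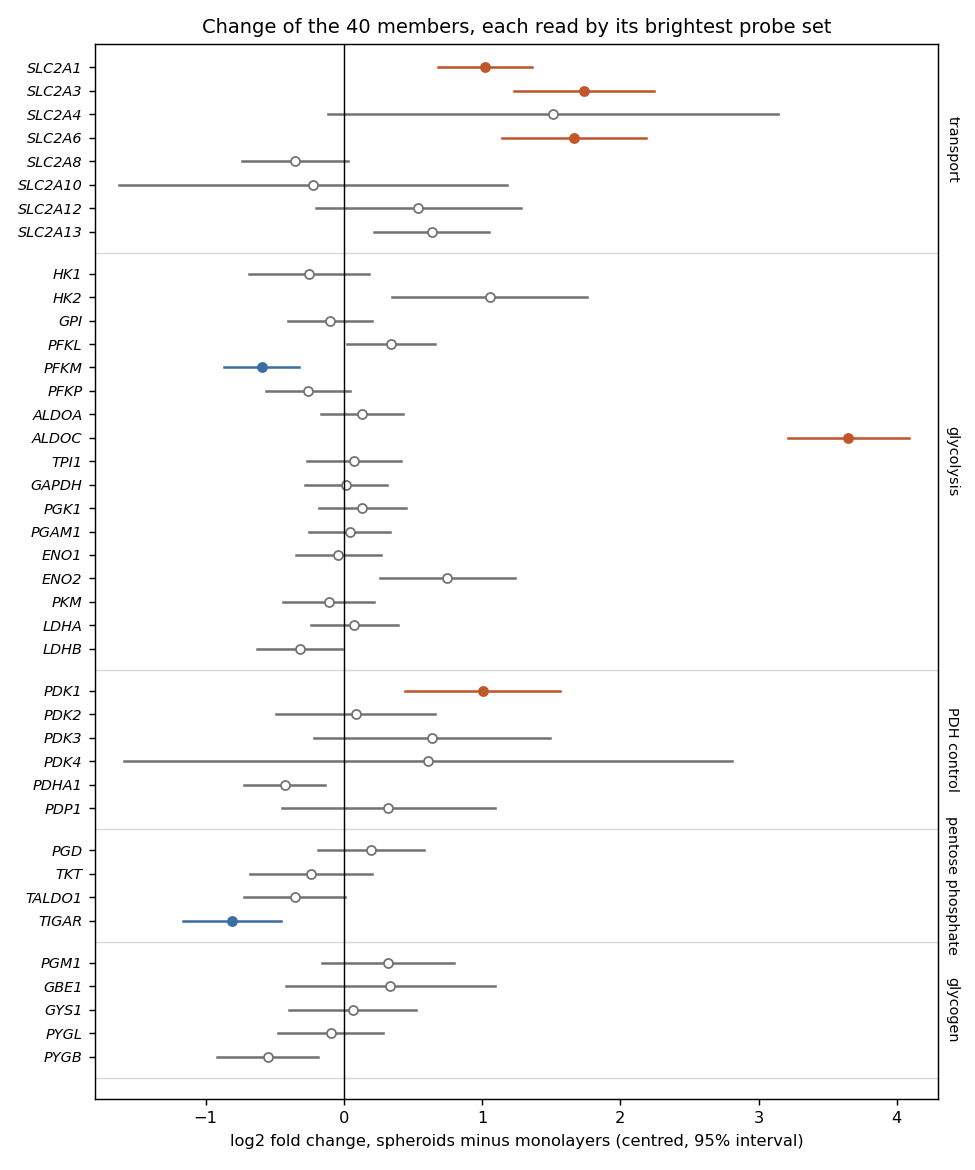
Log2 fold change of each of the 40 genes (spheroids minus monolayers, centred values, horizontal axis) with its 95% interval from limma, grouped by step. Filled points passed the threshold; ALDOC lies far right at 3.65, while most enzymes of the glycolytic chain lie near 0.

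The promoter windows of 4 of the 5 higher genes are in the RefSeq table (GRCh38.p14), which gives 250 bases before to 50 after a transcript start, and they are shown because these genes were called together. The window of LDHA, whose RNA was not called, stands beside them as a contrast. Capitals mark the letters ACGTG on either strand, which is 1 form of the core that hypoxia-inducible factor binds, and which also lies inside CACGTG, the E-box that MYC binds. The genes and motifs were chosen after the values were seen.
ALDOC: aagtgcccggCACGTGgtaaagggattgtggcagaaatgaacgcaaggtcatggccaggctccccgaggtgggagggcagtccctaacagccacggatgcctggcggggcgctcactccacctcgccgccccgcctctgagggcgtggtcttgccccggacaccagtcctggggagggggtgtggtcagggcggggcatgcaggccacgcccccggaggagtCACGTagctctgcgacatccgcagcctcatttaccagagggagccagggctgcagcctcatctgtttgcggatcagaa
PDK1: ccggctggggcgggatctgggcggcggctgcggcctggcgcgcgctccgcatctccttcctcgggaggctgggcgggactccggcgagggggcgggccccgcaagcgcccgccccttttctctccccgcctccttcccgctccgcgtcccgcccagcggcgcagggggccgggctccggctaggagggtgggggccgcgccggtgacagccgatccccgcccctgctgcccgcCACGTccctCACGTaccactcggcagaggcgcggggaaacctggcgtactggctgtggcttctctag
SLC2A1: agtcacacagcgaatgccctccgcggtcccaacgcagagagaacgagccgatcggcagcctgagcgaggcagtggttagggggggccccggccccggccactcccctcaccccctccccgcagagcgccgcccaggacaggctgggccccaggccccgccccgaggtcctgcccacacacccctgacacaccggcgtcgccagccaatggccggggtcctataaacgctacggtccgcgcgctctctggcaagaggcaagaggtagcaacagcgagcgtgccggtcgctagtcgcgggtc
SLC2A6: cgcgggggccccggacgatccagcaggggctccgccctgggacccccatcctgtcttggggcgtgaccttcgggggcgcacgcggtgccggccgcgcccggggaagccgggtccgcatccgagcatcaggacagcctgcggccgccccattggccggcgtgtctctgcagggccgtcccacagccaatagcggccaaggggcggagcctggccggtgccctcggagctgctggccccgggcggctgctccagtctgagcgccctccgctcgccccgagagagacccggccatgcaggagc
LDHA: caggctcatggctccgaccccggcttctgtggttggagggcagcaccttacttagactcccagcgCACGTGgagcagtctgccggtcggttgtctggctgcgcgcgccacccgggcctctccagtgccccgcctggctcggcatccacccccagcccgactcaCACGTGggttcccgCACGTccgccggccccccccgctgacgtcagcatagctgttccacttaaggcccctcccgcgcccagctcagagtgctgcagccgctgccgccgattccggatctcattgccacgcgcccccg
The ALDOC window lies at chr17:28576846-28577145 on the minus strand, the PDK1 window at chr2:172555840-172556139 on the plus strand, the SLC2A1 window at chr1:42958819-42959118 on the minus strand, the SLC2A6 window at chr9:133479050-133479349 on the minus strand and the LDHA window at chr11:18394313-18394612 on the plus strand. PDK1 and LDHA have 2 windows each, and the other window of each holds no match. ALDOC and PDK1 hold 2 separate matches each and LDHA holds 3, more than any of the higher genes. SLC2A1 and SLC2A6 hold no ACGTG in this window. The other form of the core, GCGTG, was not searched. Of 37 genes in the set with a window, 20 hold ACGTG in at least 1 (54.1%), against 24.9% of the 27305 genes in the table, and 7 hold CACGTG (18.9%, against 8.77%). The windows are also richer in G and C, with a median of 69.7% against 58.7% over all windows, and genes with several starts have several, partly overlapping windows. Matches stood in 2 of 4 higher genes, 2 of 2 lower genes and 16 of 31 genes not called. A match is a description of letters and shows no binding.

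Among the 8 transporters 3 were higher and 5 were not called, with a median log2 fold change of 0.83. SLC2A3 (GLUT3), a high-affinity transporter, had signals of 43.45, 62.03 and 69.05 in monolayers and 174, 294 and 182 in spheroids (log2 fold change 1.74 ± 0.225 SE, limma adjusted p = 0.00234). Every spheroid lay above every monolayer. The other 2 probe sets of SLC2A3 alone had log2 fold changes of 2.11 ± 0.24 SE and 2.31 ± 0.22 SE, both called higher. The 2 probe sets shared with SLC2A14 rose by 1.59 and 2.245, so signals of these near-identical genes cannot be told apart there.

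SLC2A6 (GLUT6), a transporter found on lysosomal membranes, had signals of 677, 616 and 378 in monolayers and 1608, 1928 and 2189 in spheroids (log2 fold change 1.66 ± 0.23 SE, limma adjusted p = 0.00307). SLC2A1 (GLUT1), the basal glucose transporter of most cells, had signals of 265, 358 and 310.4 in monolayers and 607, 841 and 647 in spheroids, which is 2.02-fold (log2 fold change 1.02 ± 0.15 SE, limma adjusted p = 0.00405). The groups did not overlap for either gene, and both kept their call without any single array. The dimmer SLC2A1 probe set had means of 7.93 and 24.9 and was not called (log2 fold change 1.65, adjusted p = 0.0687 by limma). Within arrays SLC2A3 gained 0.72 (standard error 0.17) on SLC2A1 on the log2 scale.

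SLC2A13, a proton-coupled myo-inositol transporter, had signals of 106, 84.3 and 132.7 in monolayers and 166, 211 and 170.5 in spheroids, without overlap (log2 fold change 0.635, adjusted p = 0.0672 by limma). It passed on the signals as deposited (0.78) and after quantile normalization (0.79), while the mean over its 5 probe sets was -0.43. SLC2A8, an intracellular transporter, had a log2 fold change of -0.355 with mean signals of 98.99 and 85.6. SLC2A12 had 0.54, at mean signals of 13.5 and 21.9. The insulin-regulated SLC2A4 (means of 3.26 and 8.14) and SLC2A10 (1.06 and 1.07) lay below the array medians of 14.62 to 18.05.

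**Figure D2:**
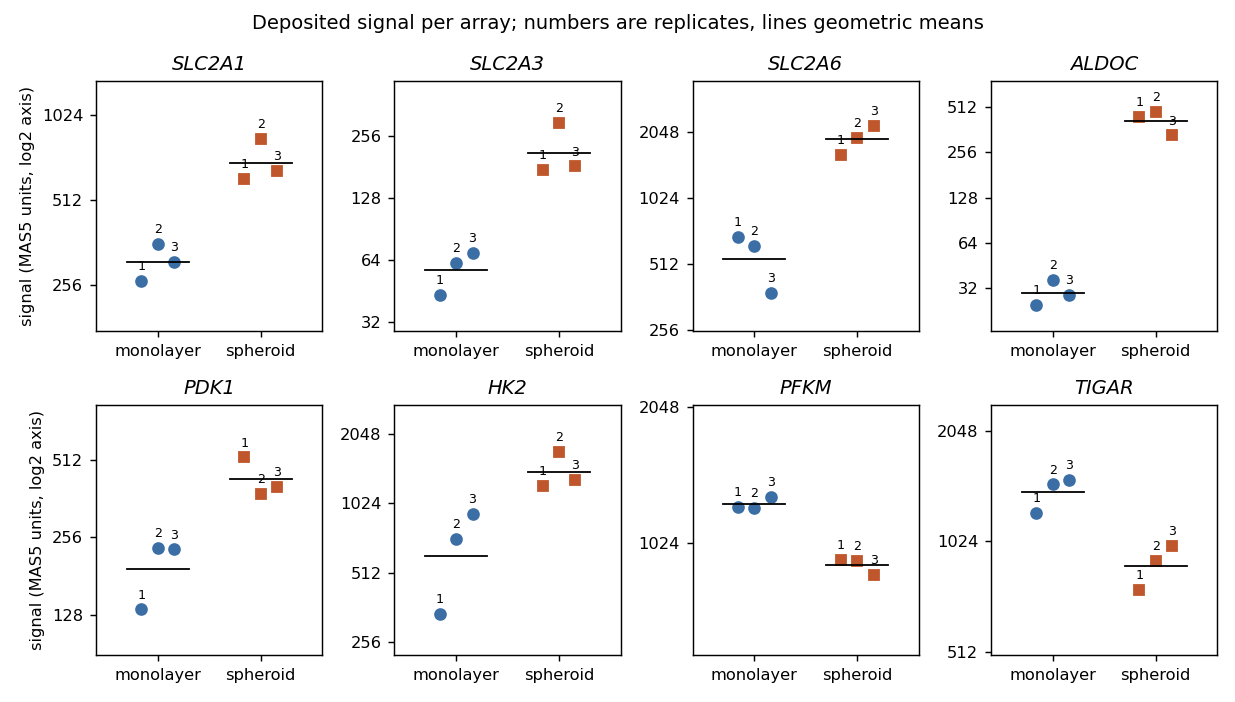
Deposited signal on each of the 3 monolayer and 3 spheroid arrays (log2 axis, a separate range per panel) for the 7 genes called and for HK2. Numbers are replicates and lines are geometric means; the groups do not overlap in any panel, and monolayer 1 is the lowest monolayer for SLC2A1, SLC2A3, ALDOC, PDK1, HK2 and TIGAR.

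Hexokinases trap glucose as glucose 6-phosphate. HK2, the inducible isoform, had signals of 338, 716 and 919.8 in monolayers and 1221, 1710 and 1295 in spheroids at its brightest probe set, without overlap (log2 fold change 1.055 ± 0.31 SE, limma adjusted p = 0.0710). Monolayer 1 lay far below the other monolayers. Without it the fold change was smaller, at 0.63, and passed (adjusted p = 0.0311 by limma), and without monolayer 3 it was 1.35 and also passed. Its other probe sets, dimmer than this one, went the opposite way. One had means of 136 ± 30.0 and 77.1 ± 14.5 (SD, n = 3) and was called lower (log2 fold change -0.96 ± 0.23 SE, limma adjusted p = 0.0330). It was not called on the signals as deposited or after quantile normalization. The other had -0.42 and was not called. The probe sets of HK2 thus gave no single direction, and which of them reports the gene was not tested. HK1, the constitutive isoform, had signals of 656, 1029 and 1103 in monolayers and 769, 976 and 793 in spheroids, with a log2 fold change of -0.25 (standard error 0.19). Without monolayer 1 it was -0.49 and called lower (adjusted p = 0.0436 by limma). Within arrays HK2 gained 1.31 (standard error 0.21) on HK1 at the brightest probe sets.

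Phosphofructokinase commits sugar to glycolysis, and has 3 isoforms. PFKM, the muscle isoform, had signals of 1228, 1225 and 1292 in monolayers and 938, 936 and 868 in spheroids, tight within each group (log2 fold change -0.60 ± 0.12 SE, limma adjusted p = 0.0159). The call ended without monolayer 2 (adjusted p = 0.0765) and without monolayer 3 (adjusted p = 0.0830, limma). PFKL, the liver isoform, had 194, 214 and 215 against 313, 292 and 268 (log2 fold change 0.34, adjusted p = 0.188 by limma) and passed as deposited (0.485). A PFKL probe set almost as bright, with means of 186 and 218, had 0.09 and was not called on either scale. PFKP, the platelet isoform, had -0.26 (standard error 0.14). Within arrays, at the brightest probe sets, PFKP lost 0.60 (standard error 0.10) against PFKL and gained 0.34 (standard error 0.12) on PFKM.

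Aldolase splits fructose bisphosphate. ALDOC, the isoform best known from brain, showed the largest change of the 40 genes, from signals of 24.7, 36.2 and 28.9 in monolayers to 438, 477 and 332 in spheroids, which is 12.6-fold (log2 fold change 3.65 ± 0.19 SE, limma adjusted p = 1.25e-04). Without single arrays the log2 fold change ran from 3.52 to 3.80, and ALDOC was called under every alternative listed in the closing section. ALDOA, the main isoform of most tissues, had 0.13 at its brightest probe set, with means of 3640 ± 96.6 and 4411 ± 16.7 (SD, n = 3). It passed as deposited, at 0.28. A dimmer ALDOA probe set rose from 632 ± 95.0 to 1085 ± 77.8 (log2 fold change 0.64, adjusted p = 0.0250 by limma). Every ALDOA probe set, the brightest included, has a suffix that marks probes that may also match other transcripts. The brightest probe sets of SLC2A3, PFKL, GAPDH and LDHB carry the same suffix. Within arrays ALDOC gained 3.52 (standard error 0.22) on ALDOA.

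The enzymes that follow were among the brightest probe sets of the arrays. For ALDOA, TPI1, GAPDH, PGK1, PGAM1, ENO1, LDHA and LDHB the mean signal lay above the 99th percentile, and the 95% intervals of their log2 fold changes all fell between -0.63 and 0.45. The centred log2 fold changes were 0.07 for triose phosphate isomerase (TPI1), 0.02 for GAPDH, 0.13 for phosphoglycerate kinase (PGK1), 0.04 for phosphoglycerate mutase (PGAM1), -0.04 for enolase 1 (ENO1) and 0.08 for lactate dehydrogenase A (LDHA). As deposited they were 0.22, 0.16, 0.28, 0.19, 0.11 and 0.22, so ENO1 changes sign with the scaling, and the deposited spheroid signals lay above all monolayer signals for 7 of these 8 genes. On centred values the groups overlapped for all 7, and LDHB alone did not overlap, being lower. The array controls for GAPDH were also higher in spheroids as deposited, with means of 5087 ± 225 and 5948 ± 28.2 at the 5' end. Copies of several of these genes elsewhere in the genome could share signal with them. The highest signal on any array was 7257, and whether such bright probe sets report changes in full was not tested.

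PGK1 has 6 probe sets, all with positive log2 fold changes, from 0.13 at the brightest to 1.61 at a dim one with signals of 26.1, 17.5 and 14.9 in monolayers and 82.0, 74.4 and 43.1 in spheroids (adjusted p = 0.0152 by limma). That dim one was the only PGK1 probe set called, and 3 others passed as deposited, at 0.49, 0.56 and 0.56. The mean over its probe sets passed as well (0.56, adjusted p = 0.0220 by limma). LDHB, the heart-type subunit that favors pyruvate formation, had signals of 4320, 4233 and 4001 in monolayers and 3753, 3620 and 3740 in spheroids (log2 fold change -0.32, adjusted p = 0.199 by limma), and passed after quantile normalization (-0.30). Within arrays LDHA gained 0.40 (standard error 0.05) on LDHB. ENO2, the neuronal enolase, had 82.6, 127 and 134 against 199, 271 and 167 (log2 fold change 0.75, adjusted p = 0.0648 by limma) and gained 0.79 (standard error 0.315) on ENO1. Glucose phosphate isomerase (GPI) and pyruvate kinase (PKM) had -0.10 and -0.11, and 0.04 and 0.03 as deposited.

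**Figure D3:**
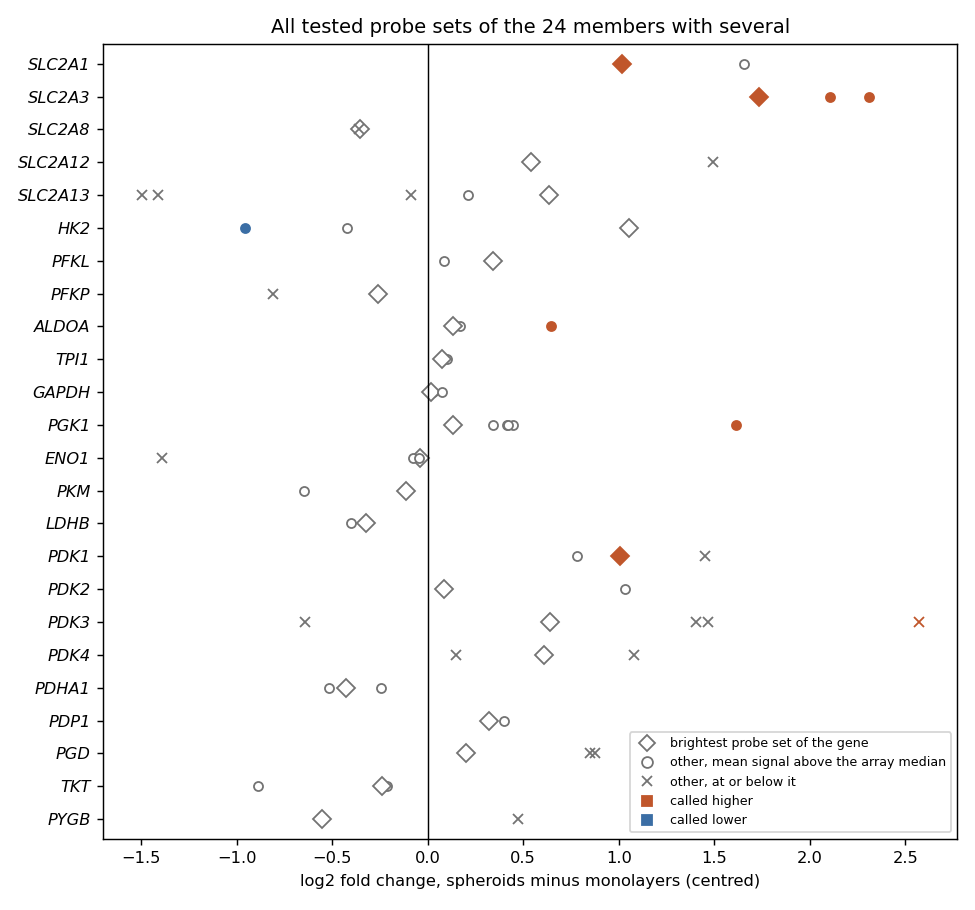
Log2 fold change (spheroids minus monolayers, horizontal axis) of every tested probe set of the 24 genes with several, 1 gene per row. Diamonds mark the probe set of highest level; the SLC2A3 probe sets lie together between 1.74 and 2.31, while those of HK2 lie on both sides of 0, at 1.055 and -0.96.

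Isoforms were compared in 10 pairs, each gene at its brightest probe set. The difference within arrays did not overlap between the groups in 8 of them. Each of these had p = 0.1 by a two-sided exact permutation test, the smallest that 3 arrays against 3 allow (0.125 after Benjamini-Hochberg over the 10 pairs). No pair can therefore pass at 0.05. The share of other gene pairs without overlap was not computed, and the pairs were chosen with earlier results known, so the 8 have no background beside them. For single genes on centred values, 11.7% of all genes were higher and 20.6% lower without overlap. The remaining pairs were PDK4 against PDK2 and PYGL against PYGB (exact p = 0.8 and 0.3).

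**Figure D4:**
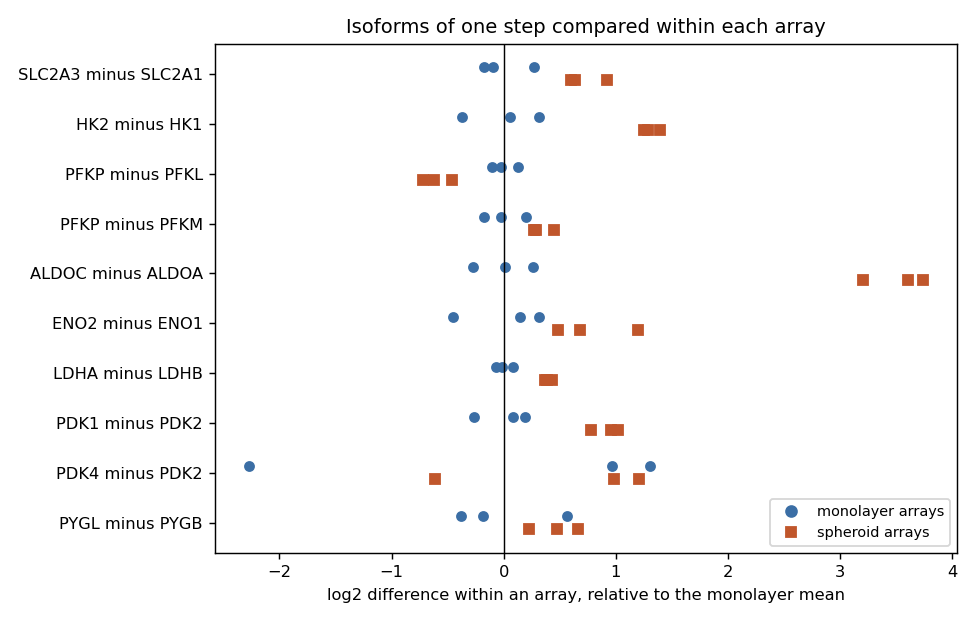
Difference in log2 signal between 2 isoforms on the same array, relative to its mean in monolayers (horizontal axis, log2), for 10 pairs. Each point is 1 array; ALDOC minus ALDOA shifts by 3.52 in spheroids, and the groups overlap only for the PDK4 and PYGL pairs.

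Of the 6 genes that control pyruvate dehydrogenase, 1 was higher and 5 were not called. PDK1, a kinase that inactivates the enzyme, had signals of 135, 234 and 229.8 in monolayers and 522, 376 and 402.5 in spheroids, without overlap (log2 fold change 1.004 ± 0.25 SE, limma adjusted p = 0.0364). The call rests on the full set of arrays: it held without monolayer 1 (0.74) and ended without any one of the other 5, with adjusted p from 0.0542 to 0.116. It also ended when low values were raised to a floor and when the probe sets of PDK1 were averaged. At the brightest probe sets only, PDK1 gained 0.92 (standard error 0.16) on PDK2 within arrays. PDK2 had 0.085 at its brightest probe set and 1.03 at a second (adjusted p = 0.221 by limma). That second probe set had means of 28.2 and 55.4, without overlap, and its change was as large as that of PDK1. PDK3 was dim, with 0.64 at means of 9.71 and 16.7, and its only called probe set had means of 0.858 and 5.397, near the bottom of the scale. PDK4 had means of 4.09 and 5.31. PDHA1, the catalytic subunit that the kinases phosphorylate, had signals of 1505, 1469 and 1466 in monolayers and 1250, 1181 and 1223 in spheroids, without overlap (log2 fold change -0.43 ± 0.13 SE, limma adjusted p = 0.0773). PDP1, a phosphatase that reactivates the enzyme, had 888, 2222 and 2248 in monolayers and 1735, 2514 and 2687 in spheroids, so monolayer 1 lay far below the rest (log2 fold change 0.32, and -0.12 without it).

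In the pentose phosphate group, 1 of 4 genes was lower and 3 were not called. TIGAR, a p53 target whose product lowers fructose bisphosphates and is known to favor the pentose phosphate branch, had signals of 1226, 1465 and 1509 in monolayers and 754, 908 and 996 in spheroids. The groups did not overlap (log2 fold change -0.81 ± 0.16 SE, limma adjusted p = 0.0134). Its call ended without monolayer 2, monolayer 3 or spheroid 1 (adjusted p = 0.0704, 0.0662 and 0.0524, limma). Transaldolase (TALDO1) had 2092, 2064 and 2064 in monolayers and 1901, 1564 and 1934 in spheroids (log2 fold change -0.36, adjusted p = 0.237 by limma), also without overlap. Transketolase (TKT) had -0.24 (standard error 0.20) and 6-phosphogluconate dehydrogenase (PGD) 0.20 (standard error 0.17).

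None of the 5 glycogen genes was called, where limma gave 1 at an unadjusted p under 0.05 and the methods' t-test with adjustment gave 0. PYGB, the brain-type glycogen phosphorylase, had signals of 249, 350.2 and 346 in monolayers and 231, 266 and 210.4 in spheroids (log2 fold change -0.55 ± 0.16 SE, limma adjusted p = 0.0691). The signals as deposited overlapped through monolayer 1, while the centred values did not overlap. Without that array the log2 fold change was -0.71 and passed (adjusted p = 0.00844 by limma). Phosphoglucomutase PGM1 had 1349, 827 and 739 in monolayers and 1287, 1367 and 1233 in spheroids (log2 fold change 0.32), and 0.58 without monolayer 1, which passed (adjusted p = 0.0234 by limma). The branching enzyme GBE1 had 1209 in monolayer 1 against 3044 and 3116 in the others, and 0.33 with that array or -0.115 without it. Glycogen synthase (GYS1) and liver-type phosphorylase (PYGL) had 0.06 and -0.10, the latter 0.05 as deposited.

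Of 84 further genes of these pathways and their regulators 73 were measured, of which 3 were higher, 3 were lower and 67 were not called, with a median log2 fold change of -0.06. Over all genes 3.88% were called higher and 9.22% lower, so these counts were close to or under the background. PFKFB4, a bifunctional kinase and phosphatase that sets the activator fructose 2,6-bisphosphate, rose from 19.7, 34.9 and 14.9 to 255, 208 and 176 (log2 fold change 3.13 ± 0.31 SE, limma adjusted p = 8.95e-04). PPP1R3B, a subunit that directs a phosphatase to glycogen, rose from 159, 236 and 216 to 523, 548 and 476 (log2 fold change 1.21), and the arrestin relative ARRDC4, which restrains glucose uptake, from 132.9, 167 and 215 to 552, 405 and 375 (log2 fold change 1.23). In the non-oxidative pentose phosphate branch, ribose 5-phosphate isomerase (RPIA) fell from 482, 579 and 629.8 to 304, 351 and 349 (log2 fold change -0.89) and ribulose 5-phosphate epimerase (RPE) from 782, 842.5 and 926 to 584, 618 and 645 (log2 fold change -0.61). The RPE call was lost when monolayer 2, monolayer 3, spheroid 1 or spheroid 2 was left out. The transcription factor MYC fell from 1773, 1819 and 1677 to 1138, 933 and 973 (log2 fold change -0.94). The adjusted p by limma of these last 5 genes ran from 0.00295 for PPP1R3B to 0.0234 for RPE. The 6 further transporters and the 7 further genes of the pyruvate dehydrogenase step were not called, where limma gave 0 and 3 at an unadjusted p under 0.05 and the methods' t-test 0 and 0 after adjustment. On centred values all 7 of the latter had negative log2 fold changes, with a median of -0.28 (-0.13 as deposited). As deposited, MPC2 was positive (0.04). The median over all genes was -0.06 centred and 0.08 as deposited. TXNIP, an inhibitor of glucose uptake, had 197, 908 and 1033 in monolayers and 2080, 1888 and 1570 in spheroids (log2 fold change 1.54, adjusted p = 0.113 by limma), and without monolayer 1, which lay lowest, the log2 fold change was 0.78 and called higher. TXNIP was named after its values were seen.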

How the data were processed

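RNA of 3 monolayer and 3 spheroid cultures of NCI-H226 was hybridized to 1 array each. The deposited intensity values are linear signals per probe set that the authors computed with MAS5, with a 2% trimmed mean of 150.02 on every array. A further Genespring step to median expression, named in the methods, does not show in the deposited values. Of 54675 probe sets, 62 controls were left out and 54613 tested, without floor or filter. Log2 signals were centred on each array's median and compared with limma 3.58.1 (R 4.3.3, empirical Bayes with a mean-variance trend) and Benjamini-Hochberg adjustment. The annotation gives 1 symbol to 41097 probe sets, several to 1801 and none to 11777. The fit was also run on simulated data with known changes and independent noise, whose outcome is not given here. Those data held no array-wide shift and no outlying array, so they do not bear on either. The genes, lists, isoform pairs and tests were chosen with earlier results of these data known. Values per array were given for called members, for the 2 of smallest adjusted p in a step with fewer than 2 called, for SLC2A3, and for probe sets of a member that differed from its brightest in call or direction at a signal above the median, and other members were added for contrast. Other pathway genes are the called ones, up to 4 a step, and TXNIP. Alternatives were uncentred signals, quantile normalization, raising values under the 20th percentile (a signal of 3.11) to it, restricting the test to probe sets over the median level, limma fitted without the trend, the methods' t-test, a replicate block, leaving out each array, and the mean over a gene's probe sets. The number of arrays limits the precision.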

Additional observations from a re-analysis of the deposited data

How the results depend on the processing

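The members called, 5 higher and 2 lower, were 8 and 2 without centring, 8 and 4 with the test restricted to brighter probe sets (over the median level), 1 and 0 without the trend, and 1 and 1 by the methods' t-test with adjustment or 10 and 6 at an unadjusted p under 0.05. Leaving out 1 array gave 4 to 7 higher and 0 to 4 lower, with 0 lower without monolayer 2 or 3, 1 without spheroid 1 and 4 without monolayer 1. Their probe sets, 10 higher and 3 lower, were 17 higher without centring, 5 lower after quantile normalization, 7 lower with that restriction, 3 and 0 without the trend, and 2 and 1 by the t-test or 19 and 10 unadjusted. Leaving out 1 array gave 6 to 11 higher and 0 to 6 lower, with 6 higher without monolayer 2 or spheroid 1, 0 lower without monolayer 2 or 3 and 6 lower without monolayer 1. The other pathway genes, 3 higher and 3 lower, were 5 higher without centring and after quantile normalization, 6 lower with that restriction, 1 and 0 without the trend, and 0 and 0 by the t-test or 5 and 7 unadjusted. Without 1 array they were 3 to 8 higher and 2 to 5 lower, with 8 and 5 without monolayer 1. The members' median log2 fold change of 0.08 was 0.23 without centring and 0.025 to 0.206 without 1 array, the highest without spheroid 2. The PDK4 minus PDK2 difference of 0.52 turned to -0.094 with the floor, and the PYGL minus PYGB difference of 0.45 to -0.058 over all probe sets of each gene. No called member changed sign under any alternative. The cause of these shifts was not tested, and some alternatives put fewer probe sets or arrays into the fit. The array medians used for centring were 14.65, 14.62 and 14.72 in monolayers. In spheroids they were 15.56, 18.05 and 15.19, highest in spheroid 2.

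Deviations of same-numbered arrays from their group means correlated at 0.09, -0.01 and 0.02. Correlations this weak over all probe sets do not show that replicate numbers pair the arrays, and cannot exclude it. KRT5 was highest in replicate 1 of each group (1845 and 910.5), and GBE1 lowest (1209 and 2510). TXNIP, in contrast, was lowest in monolayer 1 (197) and highest in spheroid 1 (2080). With the replicate block 7 members were higher and 2 lower (HK2 and ENO2 were added), and 6 and 5 other pathway genes. Dim probe sets set limits: the mean signals of SLC2A4, SLC2A10, PDK3 and PDK4 over all arrays lay under the mean array median, where fold changes are least certain. SLC2A12 lay under the array median on every monolayer, with signals of 12.5, 13.7 and 14.3.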
